A study of Homo sapiens with 6 samples.

Results

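The 9 genes HLA-B, HLA-C, HLA-E, B2M, TAP1, TAP2, TAPBP, PSMB8 and PSMB9, which carry the MHC class I antigen presentation pathway, were taken by their symbols from the 60651 gene identifiers counted in each library. They were compared between 3 control and 3 MYCN-induced cultures of SK-N-AS, an established neuroblastoma cell line without MYCN amplification. All cultures carried a stably transfected MYCN gene under the tetracycline repressor (TR) system, were kept as single clones under G418 and Blasticidin, and were harvested at 120 h, given elsewhere as 5 days. Control cultures received ethanol (ETOH) and induced cultures tetracycline (Tet). The effect of the antibiotic itself and that of MYCN cannot be told apart, since no library received tetracycline without the MYCN construct. The study describes independent experiments, whereas the labels do not say whether the libraries came from separate clones or cultures, so the p-values measure the spread between these libraries. RNA was freed of ribosomal transcripts and read in pairs.

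MHC class I molecules display short peptides from inside the cell to cytotoxic T cells. The proteasome cuts cellular proteins, and after interferon exposure its catalytic subunits are exchanged for PSMB8, PSMB9 and PSMB10 of the immunoproteasome. TAP1 and TAP2 form the transporter that moves peptides into the endoplasmic reticulum, TAPBP (tapasin) holds the empty class I molecule beside it, and the finished complex consists of a heavy chain such as HLA-B, HLA-C or HLA-E with the light chain beta-2-microglobulin (B2M). Neuroblastoma is known for low class I at the cell surface, and MYCN has been described as a repressor of the pathway, which is the question this comparison addresses.

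Interferon and NF-kappaB act on these genes through short promoter motifs. In RefSeq promoters on GRCh38.p14, the 250 bases before the start were searched on both strands for the core of the interferon-stimulated response element, spelled GAAA, any 2 bases and again GAAA. Entries were found for 8 members, all except HLA-E. B2M, TAP1, TAP2 and TAPBP held the motif, and HLA-B, HLA-C, PSMB8 and PSMB9 did not, against 3.02% of all 35116 such windows. Overlapping matches were counted separately, giving 2 in B2M, 2 in the first of the TAP1 windows, 2 in TAPBP and 1 in TAP2. PSMB10, the third exchangeable subunit, also held 1. The B2M and TAP1 stretches are shown because these genes make the light chain and the transporter and their matches lie outside every counted exon. The TAP1 stretch lies upstream of the PSMB9 window (chr6:32853942-32854191), beyond the 250 bases searched for PSMB9. Capitals mark the overlapping matches, which in TAP1 read on the opposite strand. The stretches lie at chr15:44711348-44711413 on the plus strand and chr6:32853817-32853863 on the minus strand.
B2M: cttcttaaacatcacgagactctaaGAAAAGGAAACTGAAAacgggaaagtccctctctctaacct
TAP1: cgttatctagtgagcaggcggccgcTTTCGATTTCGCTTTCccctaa
The NF-kappaB-like motif, spelled GGG, any 2 bases and TTCCC, was found 1 time in the HLA-B window and in no other member window, against 1.97% of all windows. The E-box CACGTG, the letters that MYC proteins bind, was in none of the member windows and in 6.34% of all. CCAAT was found 3 times in HLA-B, 4 times in HLA-C and 1 time each in B2M, TAP1 and PSMB9, against 32.01% of all windows with at least 1. These matches are letters in a window and no measure of binding. Only these exact spellings within 250 bases were searched, so a window without a match may hold a variant spelling.

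Where the members lie in the genome bears on every count below. In the deposited coordinates (GRCh38), 8 members lie in the MHC on chromosome 6, from HLA-E at 30489509 to 30494194 to TAPBP at 33299694 to 33314387, and B2M lies on chromosome 15 at 44711487 to 44718851. TAP2, PSMB8, PSMB9 and TAP1 are neighbours, with 1946 bases between TAP2 and PSMB8, and the spans of PSMB8, PSMB9 and TAP1 overlap. GRCh38 also contains 261 alternate contigs, which repeat stretches of the chromosomes in other haplotypes, and 7 of them repeat the MHC. The header of the deposited counts names alignments marked as unique and sets no option for pairs that align at several places, whereas the study's methods list such an option together with a minimum mapping quality. As its hg38 reference the study names the Ensembl file of GRCh38 alternate sequence, and how that file entered the alignment of these libraries is not described further. Exon windows of 50 bases with an exact copy on an alternate contig made up 73.2% of HLA-B, 91.1% of HLA-C, 91.9% of B2M, 99.1% of TAP2 and 100% of HLA-E, TAP1, TAPBP, PSMB8 and PSMB9. Copies elsewhere on the main chromosomes were fewer, from 0% of the windows in PSMB8 to 8.3% in TAPBP.

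Genes in such sequence had lower counts and differed more between replicates. Of 818 protein-coding genes with at least 50% of their windows copied, 276 (33.7%) had a mean of at least 100 counts, against 64.9% of the 19110 other genes. Among genes with that mean, the 3 controls spanned more than 2-fold, a log2 range over 1, in 9.78% of the copied genes and in 2.07% of the others. From HLA-F to TAPBP, 143 of 147 protein-coding genes were copied, and the same share was 12.5%. The most visible case, named after its values were seen, was RPS18, a ribosomal protein gene of the MHC with 100% copied windows. It had 317.7, 229 and 44237.8 counts in control replicates 1, 2 and 3, whereas the 79 ribosomal protein genes under 50% copied had a median log2 range of 0.10 between controls and a highest of 1.47. In the constitutive proteasome, PSMB3 (100% copied) had a mean of 156.9 counts, while the lowest mean of the other 30 subunits was 3561. Copied genes with steady counts also occurred, B2M in the controls among them, and MRPL23, with 0% copied, varied from 20.5 to 337.5 counts in the controls. The part of the duplicated reference in the member counts was not tested, and a low count below is therefore not reported as low expression. None of the 9 members lies outside such sequence.

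**Figure D1:**
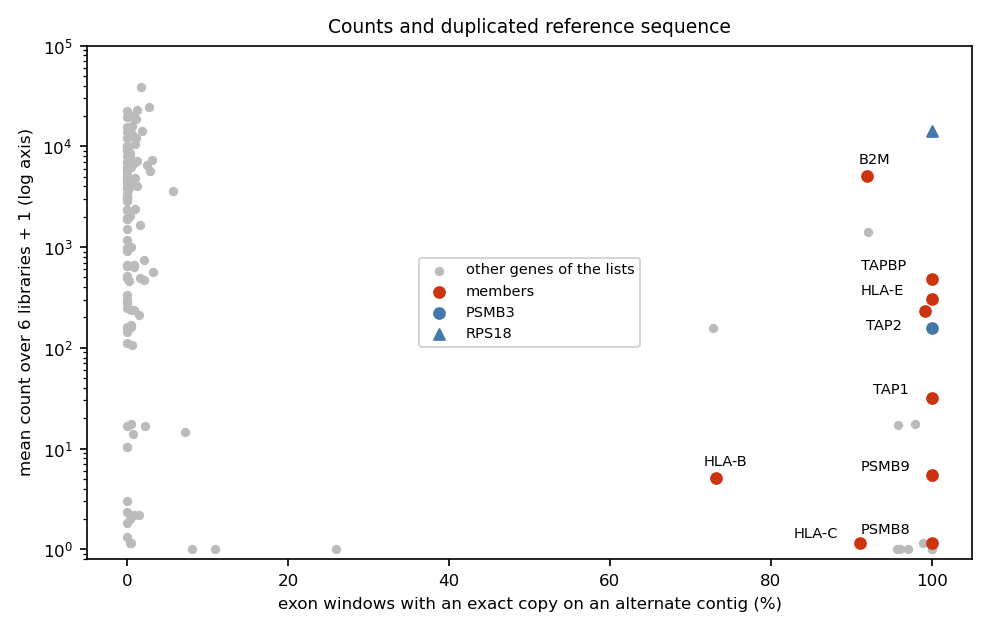
Mean count over the 6 libraries plus 1, on a log axis, against the percentage of 50-base exon windows with an exact copy on an alternate contig, for the members and the other genes of the pathway lists. All 9 members lie at or above 73.2%, PSMB3 and RPS18 at 100%, and most of the other list genes near 0.

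The libraries held 64500589 to 102249336 counted pairs, and a gene at 0 counts could have up to 3 counts, or 0.0293 to 0.0465 CPM (counts scaled to the library total), by counting error alone. MYCN had 3171, 3146 and 3284 counts in the controls and 13675.5, 20625 and 16840 in the induced libraries, 6.43-fold higher (log2 fold change 2.68 ± 0.08 SE, edgeR adjusted p = 4.15e-05). Endogenous and introduced MYCN cannot be told apart in these counts. Of the 8 leukocyte markers 6 stayed under 1 CPM in every library, 2 of them at 0. The 7 adrenergic neuroblastoma markers summed to 709.8 to 1043 CPM in the controls and 772 to 974.4 in the induced libraries, and the 8 mesenchymal markers to 494.5 to 515.7 and 565.8 to 643.2 CPM, which did not overlap. The mesenchymal sum was mostly VIM (vimentin), at 364.5 CPM on average in the controls and 447.4 in the induced libraries, which was not called (edgeR adjusted p = 0.0595). The only gene of that list called by edgeR, FN1 (fibronectin), lay the other way, with a log2 fold change of -0.71 ± 0.13 SE (adjusted p = 0.0330). The FN1 call was lost when any control library, induced replicate 1 or induced replicate 2 was left out. Of the 7 mesenchymal markers tested, 6 had log2 fold changes above 0. At an unadjusted p under 0.05, 4 lay higher and 1 lower, against 8.13% and 10.6% of all tested genes. DESeq2 called VIM and FOSL1 higher and FN1 lower, against 3.11% and 4.12% of all genes. The part of these marker differences in the values below was not tested. In such bulk RNA, fewer cells with a transcript and less transcript per cell cannot be told apart.

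None of the 9 members was called higher or lower after MYCN induction. The 5 members with enough counts for the test, HLA-E, B2M, TAP1, TAP2 and TAPBP, had log2 fold changes above 0, from 0.19 to 0.67, with a median of 0.333 against 0 over all 29086 genes tested. HLA-B, HLA-C, PSMB8 and PSMB9 did not reach 10 counts in 3 libraries. By edgeR's quasi-likelihood test, 1.02% of all tested genes were called higher and 2.38% lower at an adjusted p of 0.05. Of the members, 1 (TAP2) lay higher at an unadjusted p under 0.05, where 8.13% of all tested genes lay higher and 10.6% lower. DESeq2 called that gene higher, as it did 3.11% of all genes, and called 4.12% lower.

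B2M had the highest level of the members, 13.7 ± 1.07 TPM (a level scaled for exon length and library total, SD, n = 3) in the controls, which lay above 78.7% of 19928 protein-coding genes. HLA-E followed at 1.80 ± 0.357 TPM and TAPBP at 1.57 ± 0.257, whose control values overlapped. TAP2 stood at 0.558 ± 0.00969 TPM and TAP1 at 0.113 ± 0.0199. HLA-B (0.0269 ± 0.0192) and PSMB9 (0.0214 ± 0.00576) overlapped, and HLA-C and PSMB8 each rested on 1 read pair in the controls. B2M, HLA-E with TAPBP, TAP2, and TAP1 formed 4 steps whose control values did not overlap. From 73.2% to 100% of the exon windows of the members were copied. The part of this in the steps and in the rank of B2M was not tested, so the order is one of counts per length.

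Among the heavy chains, HLA-E, which presents signal peptides and is recognized by natural killer cells, had 273, 351 and 313 counts in control replicates 1, 2 and 3 and 262, 241 and 371 in the induced libraries. These were 2.61, 3.96 and 3.09 CPM against 4.04, 2.59 and 4.38 CPM, and the groups overlapped. The log2 fold change was 0.19 ± 0.23 SE, with a 95% interval from -0.34 to 0.72 (edgeR adjusted p = 0.726). The interval leaves room for a fall as well as a rise.

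HLA-B, a classical heavy chain that presents peptides to T cells, had 8, 1 and 6 counts in the controls and 0, 4.5 and 5 in the induced libraries. Pooled and rounded, 15 against 9 counts gave a ratio of rates of 0.711. Its exact 95% interval, for counting error only, ran from 0.274 to 1.73, so no difference was detectable at these counts. HLA-C, the other classical heavy chain among the members, had 1 count in control replicate 1 and 0 in the remaining 5 libraries. For HLA-C both groups lay under the limit of 3 counts and no fold was computed.

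Other class I related genes lie partly outside the MHC. HLA-F, HLA-G and MICA were at 0 in all 6 libraries. Of the 9 class I related genes 4 were tested and none was called, with a median log2 fold change of -0.19, and 1 lay lower at an unadjusted p under 0.05. This was FCGRT, the neonatal Fc receptor, which lies outside the MHC and pairs with B2M. Its log2 fold change was -0.50 ± 0.11 SE (edgeR adjusted p = 0.0540), and DESeq2 called it lower (adjusted p = 0.00491).

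B2M, the light chain shared by all class I molecules, had 4929, 3896 and 4601 counts in the controls and 7294, 5846 and 3560 in the induced libraries. The controls lay close together at 47.1, 43.9 and 45.4 CPM. The induced libraries spread over 112.4, 62.7 and 41.99 CPM, with replicate 1 the highest of all 6 libraries and replicate 3 the lowest. The log2 fold change was 0.67 ± 0.30 SE, or 1.59-fold, with a 95% interval from -0.03 to 1.37 (edgeR adjusted p = 0.287). This value rested on single libraries. It was 0.21 without induced replicate 1 (adjusted p = 0.572) and 0.95 without induced replicate 3, where B2M was called higher (adjusted p = 0.0412).

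**Figure D2:**
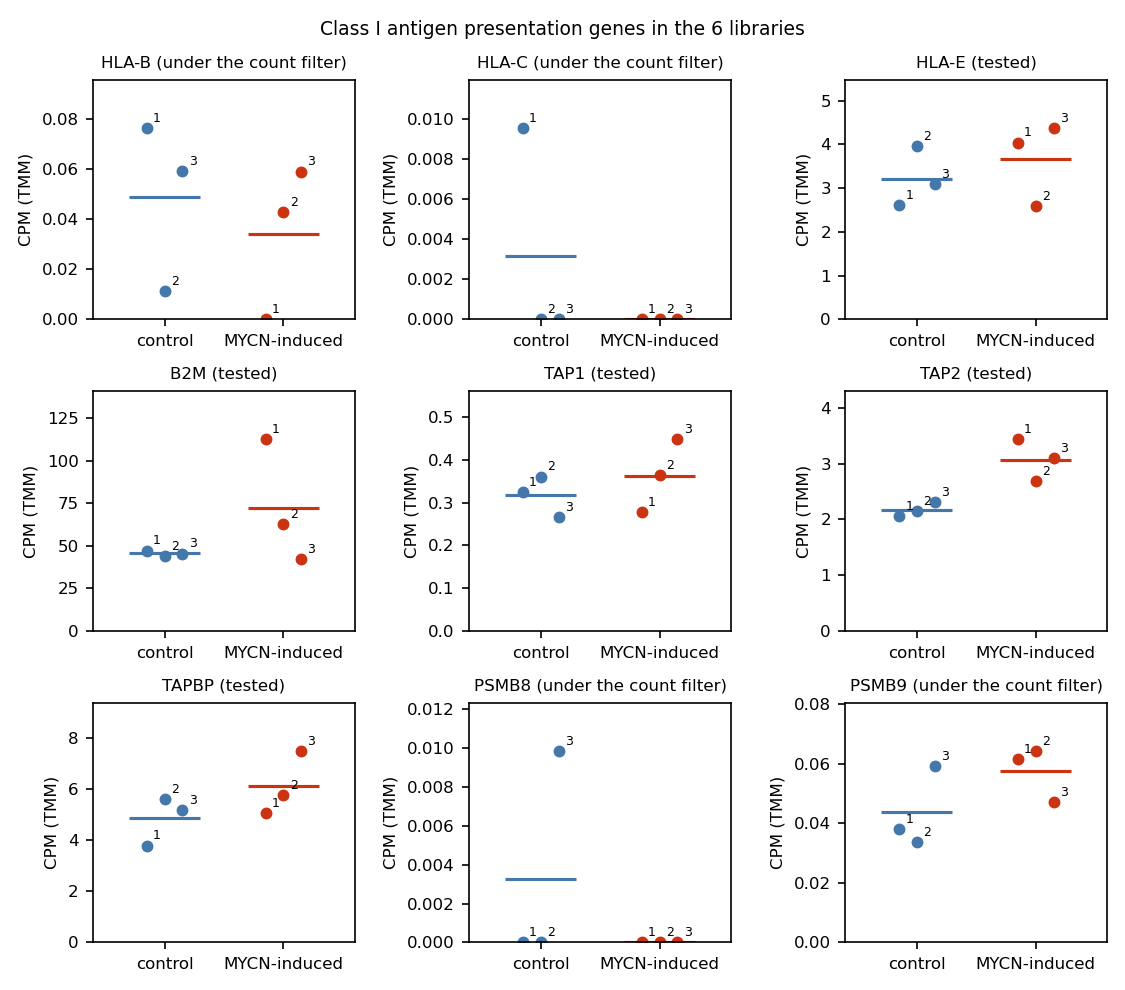
CPM after TMM normalization for each member in the 3 control (blue) and 3 MYCN-induced (red) libraries. Points are libraries labelled with their replicate number, horizontal lines are group means, and each vertical axis starts at 0. Only TAP2 among the tested members has all 3 induced values above the 3 controls, and B2M ranges from 41.99 to 112.4 CPM in the induced libraries.

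TAP2, a chain of the peptide transporter, was the member whose groups separated. Its counts were 214.83, 190.5 and 235 in the controls and 223, 249.5 and 263 in the induced libraries, which corresponds to 2.05, 2.14 and 2.32 CPM against 3.44, 2.68 and 3.10 CPM. All induced values lay above all control values, as they did for 11.5% of all tested genes. The log2 fold change was 0.50 ± 0.13 SE, or 1.41-fold, with a 95% interval from 0.19 to 0.81, and the gene was not called by edgeR (adjusted p = 0.0972). DESeq2, the tool of the study, gave 0.51 and called it (adjusted p = 0.0262). TAP2 shares 2054 exon bases (32.2%) with ENSG00000250264 on the same strand, and pairs in that stretch were split between both genes. ENSG00000250264 itself had a mean of 228.4 counts, within the range of the TAP2 counts. The part of the shared stretch in the TAP2 counts was not tested. The level and the difference given for TAP2 are therefore uncertain and may not be specific to it.

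TAP1, the partner chain, had 34, 32 and 27 counts in the controls and 18, 34.5 and 37.5 in the induced libraries. At 0.325, 0.361 and 0.266 CPM against 0.277, 0.365 and 0.448 CPM the groups overlapped. Its log2 fold change was 0.21 ± 0.25 SE, with a 95% interval from -0.36 to 0.79 (edgeR adjusted p = 0.710). TAP1 shares 577 exon bases with PSMB8-AS1 on the opposite strand, which could not be separated because the header of the counts sets no strand option, although PSMB8-AS1 itself had a mean of 3.0 counts.

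TAPBP, which bridges the transporter and the class I heavy chain, had 396, 496 and 524 counts in the controls and 328.5, 535.5 and 633.5 in the induced libraries. Its CPM were 3.78, 5.60 and 5.17 against 5.05, 5.75 and 7.48, with induced replicate 3 highest and control replicate 1 lowest. The groups overlapped, and the log2 fold change was 0.33 ± 0.19 SE, with a 95% interval from -0.12 to 0.78 (edgeR adjusted p = 0.417).

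The immunoproteasome subunits were at the edge of detection. PSMB9, which replaces PSMB6, had 4, 3 and 6 counts in the controls and 4, 6 and 4 in the induced libraries, and pooled counts of 13 and 14 gave a ratio of rates of 1.28 with an exact 95% interval from 0.556 to 2.95 for counting error only. PSMB8, which replaces PSMB5, had 1 count in control replicate 3 and 0 in the remaining 5 libraries, under the limit of 3 counts. PSMB10, which replaces PSMB7 and lies outside the MHC with 0% of its exon windows copied, had 219.83, 255.83 and 346.5 counts in the controls and 153.5, 251 and 260.5 in the induced libraries. The groups overlapped in CPM and its log2 fold change was -0.04 ± 0.19 SE (edgeR adjusted p = 0.935). The constitutive counterparts were far higher per length, at 122.7 ± 9.69 TPM for PSMB5, 42.9 ± 4.87 for PSMB6 and 100.4 ± 3.43 for PSMB7 in the controls, against 2.81 ± 0.533 TPM for PSMB10. Their log2 fold changes were -0.15, 0.17 and 0.04, and none was called (edgeR adjusted p = 0.258, 0.323 and 0.865).

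**Figure D3:**
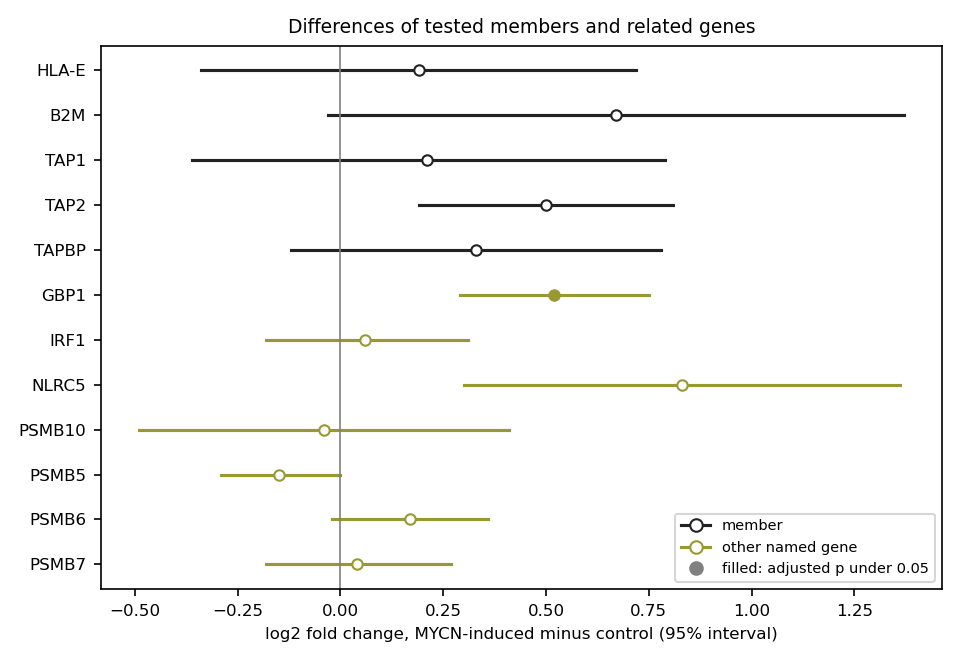
Log2 fold change with its 95% interval (edgeR) for the 5 tested members (black) and related genes (olive), with filled points for an adjusted p under 0.05. The intervals of HLA-E, B2M, TAP1 and TAPBP include 0, that of TAP2 runs from 0.19 to 0.81, and only GBP1 is filled.

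Ratios between genes of the same library do not depend on the scaling between libraries. B2M stood at 9.37, 5.93 and 7.73 times the summed TPM of HLA-B, HLA-C and HLA-E in the controls and at 14.9, 12.8 and 5.07 times in the induced libraries, so induced replicate 3 fell below all controls and the other two above them. The mean log2 ratio was 2.92 ± 0.33 in the controls and 3.31 ± 0.84 in the induced libraries (SD, n = 3, two-sided exact permutation p = 0.5). The TAP1 to TAP2 ratio was 0.218, 0.231 and 0.158 in the controls and 0.111, 0.19 and 0.196 in the induced libraries, a log2 difference of -0.31 (exact permutation p = 0.5). The log2 ratio of PSMB10 to PSMB7 differed by -0.06 (exact permutation p = 0.8), and that of PSMB9 to PSMB6, which rests on 3 to 6 counts of PSMB9 a library, by 0.26 (exact permutation p = 0.5). With 3 against 3 libraries the smallest possible p is 0.1, and the p-values adjusted over the 4 ratios were 0.667 to 0.8. The PSMB8 to PSMB5 ratio was undefined in the 5 libraries where PSMB8 was at 0.

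**Figure D4:**
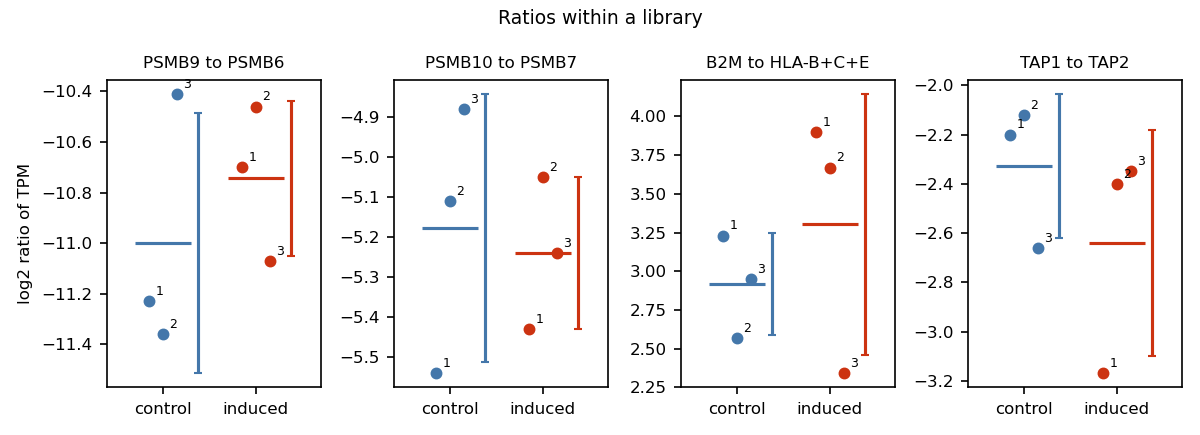
Log2 ratio of TPM within each library for 4 gene pairs in control (blue) and MYCN-induced (red) libraries. Points are libraries with their replicate number, horizontal lines are means and the bars beside them are 1 SD (n = 3), and the 2 groups overlap in all 4 panels.

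The regulators of class I transcription lie outside the duplicated sequence with the exception of IFNGR2. NLRC5, the transactivator of class I genes, had 2.76, 2.96 and 2.61 CPM in the controls and 4.53, 3.50 and 6.79 CPM in the induced libraries. The induced values lay above all controls, as they did for 11.5% of all tested genes, and were highest in replicate 3. Its log2 fold change was 0.83 ± 0.23 SE, with a 95% interval from 0.30 to 1.36, which was not called by edgeR (adjusted p = 0.102) and was called by DESeq2 (0.85, adjusted p = 0.0115). IRF1, an activator that binds the interferon element, had 5.26, 5.44 and 4.92 CPM against 5.83, 5.24 and 5.25 CPM, with a log2 fold change of 0.06 ± 0.11 SE (edgeR adjusted p = 0.812). The IRF1 values overlapped between the groups. Of the 24 regulators, all tested, none was called by edgeR, 18 had fold changes above 0 and the median was 0.053. At an unadjusted p under 0.05, 4 lay higher and 1 lower, against 8.13% and 10.6% of all tested genes. DESeq2 called NLRC5 and IFNAR1, a receptor chain for type I interferon, higher, against 3.11% of all genes.

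The remaining steps of the pathway gave no calls. Of the 7 genes for loading and trimming, such as the chaperone CALR and the trimming peptidase ERAP1, all were tested and none was called, with a median log2 fold change of 0.035. The 8 proteasome partners and the 31 constitutive proteasome subunits were also all tested with no call, with medians of 0.069 and 0.079. Of the class II list 3 of 12 genes were tested and 5 were at 0 in every library, and of the natural killer and checkpoint ligands 7 of 10, again without a call. At an unadjusted p under 0.05, 8.13% of all tested genes lay higher and 10.6% lower. The loading list held no such gene, and the partners held 0 higher and 1 lower. The constitutive subunits held 5 higher and 2 lower, the class II list 0 higher and 1 lower, and the ligand list 1 higher and 0 lower. PSMB5, PSMB6 and PSMB7 are on both proteasome lists, and PSMB5 was counted as lower in each. DESeq2 called no gene of these 5 lists.

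Interferon-stimulated genes, which usually move with class I genes when interferon acts on a cell, gave 1 call among 29 tested of 36. GBP1, a guanylate-binding protein, had 4.61, 5.05 and 4.69 CPM in the controls and 6.69, 6.72 and 7.20 CPM in the induced libraries. All induced values lay above all controls, as they did for 11.5% of all tested genes. GBP1 rose 1.44-fold (log2 fold change 0.52 ± 0.10 SE, edgeR adjusted p = 0.0372). It was not called with the replicate block or when any control library, induced replicate 1 or induced replicate 2 was left out. The list's median log2 fold change was 0.051, with 5 genes higher and 2 lower at an unadjusted p under 0.05, against 8.13% and 10.6% of all tested genes. DESeq2 called 5 of its genes higher, GBP1, GBP2, IFIH1, HERC5 and DDX60, against 3.11% of all genes.

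The 5 genes with a mean of at least 10 CPM whose log2 CPM followed the mean profile of the 9 members most closely over the 6 libraries were THAP9-AS1 (Pearson r = 0.963), MYD88 (r = 0.956), ENSG00000277967 (r = 0.951), RPL17 (r = 0.947) and POTEF (r = 0.941), out of 10157 genes. The profile itself ranged from -0.16 in control replicate 2 to 0.16 in induced replicate 3 on the log2 scale, and 4 of its 9 members had counts under the filter. With 6 libraries and so many genes, the likeness is a description of these libraries.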

How the data were processed

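Total RNA of 3 control and 3 MYCN-induced SK-N-AS cultures was sequenced after ribosomal depletion. The authors deposited estimated counts per gene. Per the file headers, unique STAR alignments were counted over exons with featureCounts 1.6.4, with pairs overlapping several genes split in equal fractions and no strand option. The submitters' processing notes name STAR 2.7.1a, featureCounts 1.5.1 and GRCh38, and the study's methods state further options, for strand, for pairs with several alignments and for mapping quality. The header was followed. Of the identifiers, 99.65% matched the naming table.

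Groups and replicate numbers came from the sample titles. Fractional values were rounded to whole counts. Genes needed 10 counts or more in 3 or more libraries, which 29086 reached, and were fitted in edgeR 4.0.16 (TMM, quasi-likelihood, no block, Benjamini-Hochberg over all tested genes, threshold 0.05), and DESeq2 1.42.0 was an alternative. The common biological coefficient of variation was 0.153. TPM used the deposited exon lengths. Chi-square per gene between replicates was 12.1 to 145.6, so each library counted as 1 sample. The edgeR and DESeq2 code was tested on simulated data. Ratios were tested by exact permutation. Exact 50-base copies were searched in the reference sequence of hg38.

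The members, lists, named genes and motifs were chosen with earlier results of these data known. Named were the members, MYCN, called genes of the lists, NLRC5, IRF1, PSMB10, PSMB5, PSMB6 and PSMB7, and the 5 genes most like the members. HLA-F, HLA-G, MICA, RPS18, PSMB3, MRPL23, VIM, IFNGR2, CALR, ERAP1 and the genes called by DESeq2 alone were named after their values were seen. A few genes covered by the rule are not reported here. Alternatives were library size only, upper-quartile normalization, DESeq2, dropping the filter, a minimum of 100 counts in every library, a replicate block, leaving out each library and, for ratios, 0.1 TPM added.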

Additional observations from a re-analysis of the deposited data

How the results depend on the processing

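The log2 fold changes of HLA-E, B2M, TAP1, TAP2 and TAPBP stayed above 0 under every alternative that could be computed. TAP1 could not be fitted with at least 100 counts in every library. No member was called lower under any of them. The number called higher was 1 with DESeq2 (TAP2, 0.51) and ranged from 0 to 1 when 1 library was left out (B2M, 0.95 without induced replicate 3, with log2 fold changes of 0.21 to 0.95 over the libraries left out). With the replicate block, the number of members called was 0, the log2 fold changes were 0.55 for B2M (adjusted p = 0.253) and 0.50 for TAP2 (adjusted p = 0.127). Same-numbered libraries deviated together with r = 0.338, 0.016 and 0.099, so the numbers were not taken as pairs. Over all genes, 904 were called higher and 1199 lower with DESeq2, 470 higher without the count filter and 404 lower with at least 100 counts in every library, against 298 and 692. Leaving out a library gave 18 to 1060 higher and 72 to 1279 lower, the highest without induced replicate 3. Of the class I related genes, 1 (FCGRT) was called lower with upper-quartile normalization and with DESeq2. Regulators called higher were 2 with DESeq2 and 0 to 1 when a library was left out, and 0 to 1 were called lower. Interferon-stimulated genes called higher were 2 with library size only, 2 with upper-quartile normalization, 5 with DESeq2, 2 without the count filter, 0 with the replicate block and 0 to 4 when a library was left out, and 0 to 1 were called lower. The cause of these moves was not tested. The PSMB9 to PSMB6 log2 difference was -0.08 with 0.1 TPM added and 0.08 to 0.55 when a library was left out, and that of PSMB10 to PSMB7 ran from -0.24 to 0.09, turning to 0.09 without control replicate 3 and 0.03 without induced replicate 1. Over the 3 numbered pairs the ratios gave sign-flip p-values of 0.5 to 1, where 0.25 is the smallest possible. Low counts, whose cause was not tested, limit HLA-B, HLA-C, PSMB8 and PSMB9. For HLA-B and PSMB9 only a large difference could have been seen. HLA-C and PSMB8 lay under the limit of 3 counts in the controls, so no fall of any size could have been seen.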
